A study of Homo sapiens with 6 samples.

Results

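Natural antisense RNAs are transcripts read from the DNA strand opposite to a named gene, and their symbols carry the sense gene's name followed by -AS and a number. Of the 4439 genes in the deposited table, 125 had such a name, 2.82% of the table, and these 125 antisense RNAs are described here with the 55 sense genes that the same table held. They were found by name alone: the suffix was removed and the remaining symbol was looked up in the table. Every gene of the table, antisense or not, had already been called different between the lines by the authors, so an antisense RNA that did not differ is not analysed here.

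The samples were 3 libraries of HCC827 and 3 libraries of HCC827OR. HCC827 is a lung adenocarcinoma line driven by an activating EGFR mutation, and the labels give it as osimertinib sensitive. HCC827OR was derived from it by rising doses of osimertinib, an inhibitor of mutant EGFR, in monthly steps of 10, 50, 100 and 500 nM and of 1 and 5 µM, and was defined by growth at 5 µM. HCC827OR is one derivative of one line, the labels do not say whether it was cloned, and drug exposure at harvest is not stated. No label ties the libraries of a line to separate cultures, so p-values here measure the spread between libraries, which may be technical.

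Antisense RNAs are mostly spliced, long non-coding RNAs of low abundance that are often enriched in the nucleus. Some start near the promoter of the sense gene and are transcribed away from it, and others lie inside the sense gene or cross its far end. Cases are known in which the antisense RNA represses its partner, in which it helps keep the partner's chromatin open, and in which both simply share a promoter region. The library kit named in the labels, TruSeq RNA Sample Prep, does not mark strand in its standard form. The same protocol text speaks of retinas, which these cells are not, and use of strand in the counting is not stated. If strand was not used, reads from bases that the sense gene and its antisense partner share cannot be told apart. Whether this holds for these libraries is not known.

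The values are a normalized expression signal whose unit is not named in the file, and the depth of the libraries is unknown. Over the table the values summed to between 115790 and 145175 in the parental libraries and between 149956 and 152065 in the resistant libraries. Parental library 3 stood somewhat apart, with a correlation across genes of 0.957 and 0.960 with the other parental libraries on the log2(value + 1) scale, against 0.991 between those. The lung lineage label was checked on marker genes: 3 of 4 lung adenocarcinoma lineage markers were in the table and all 3 fell, from a summed value of 351.44 to 360.51 in the parental libraries to 1.84 to 5.14 in the resistant ones. Of 8 epithelial markers, 7 were in the table and all fell, from a sum of 6692.43 to 8289.57 to one of 2162.91 to 2206.07. Of 9 mesenchymal or fibroblast markers, 6 were in the table and all rose, from 183.21 to 228.85 to between 1495.09 and 1634.54, with POSTN at 0 in every parental library. None of 4 leukocyte markers was in the table, and of 3 endothelial markers PECAM1 fell and VWF was too low to test. The part that these marker shifts have in the changes of the antisense RNAs was not tested.

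Promoter windows are shown for 3 pairs in which sense gene and antisense RNA start close together on opposite strands. SPINT1 and TMEM51 fell together with their antisense RNAs, while STARD4 and its antisense RNA changed in opposite directions. Each window runs from 250 bases before to 50 bases after the start in RefSeq (GRCh38.p14), written 5′ to 3′ on the gene's own strand, and capitals mark the bases that lie in the windows of both partners. The windows lie at chr5:111512486-111512785 (minus strand) for STARD4, chr5:111511976-111512275 (plus) for STARD4-AS1, chr15:40844227-40844526 (plus) for SPINT1, chr15:40844475-40844774 (minus) for SPINT1-AS1, chr1:15152316-15152615 (plus) for TMEM51 and chr1:15152415-15152714 (minus) for TMEM51-AS1.
STARD4: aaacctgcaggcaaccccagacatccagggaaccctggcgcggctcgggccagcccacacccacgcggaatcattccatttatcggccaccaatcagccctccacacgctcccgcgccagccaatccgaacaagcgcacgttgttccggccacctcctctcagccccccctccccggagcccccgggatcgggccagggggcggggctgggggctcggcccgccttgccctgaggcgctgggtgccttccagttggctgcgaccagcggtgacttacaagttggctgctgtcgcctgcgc
STARD4-AS1: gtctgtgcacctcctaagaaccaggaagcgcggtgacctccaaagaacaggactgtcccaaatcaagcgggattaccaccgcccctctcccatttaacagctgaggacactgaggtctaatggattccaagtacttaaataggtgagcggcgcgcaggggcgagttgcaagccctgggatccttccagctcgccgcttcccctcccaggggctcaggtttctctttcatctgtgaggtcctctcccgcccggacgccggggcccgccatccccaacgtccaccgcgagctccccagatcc
SPINT1: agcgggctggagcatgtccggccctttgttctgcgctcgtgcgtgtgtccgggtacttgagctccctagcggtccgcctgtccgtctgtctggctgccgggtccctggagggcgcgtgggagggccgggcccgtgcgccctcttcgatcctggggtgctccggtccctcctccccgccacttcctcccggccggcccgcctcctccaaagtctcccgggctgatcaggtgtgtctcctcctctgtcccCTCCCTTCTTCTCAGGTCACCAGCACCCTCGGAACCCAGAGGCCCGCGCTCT
SPINT1-AS1: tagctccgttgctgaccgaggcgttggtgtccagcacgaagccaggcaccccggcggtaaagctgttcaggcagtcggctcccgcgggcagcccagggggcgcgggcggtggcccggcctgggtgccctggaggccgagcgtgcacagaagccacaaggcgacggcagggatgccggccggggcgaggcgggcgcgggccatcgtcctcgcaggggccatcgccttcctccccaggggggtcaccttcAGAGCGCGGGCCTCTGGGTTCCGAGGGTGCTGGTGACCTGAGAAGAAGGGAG
TMEM51: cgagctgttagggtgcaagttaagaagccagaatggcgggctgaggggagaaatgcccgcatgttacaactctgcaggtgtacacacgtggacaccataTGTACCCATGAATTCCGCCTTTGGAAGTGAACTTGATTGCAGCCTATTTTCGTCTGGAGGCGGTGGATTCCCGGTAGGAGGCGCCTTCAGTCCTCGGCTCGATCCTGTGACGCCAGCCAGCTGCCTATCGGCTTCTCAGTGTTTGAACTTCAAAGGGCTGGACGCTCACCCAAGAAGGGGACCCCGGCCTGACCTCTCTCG
TMEM51-AS1: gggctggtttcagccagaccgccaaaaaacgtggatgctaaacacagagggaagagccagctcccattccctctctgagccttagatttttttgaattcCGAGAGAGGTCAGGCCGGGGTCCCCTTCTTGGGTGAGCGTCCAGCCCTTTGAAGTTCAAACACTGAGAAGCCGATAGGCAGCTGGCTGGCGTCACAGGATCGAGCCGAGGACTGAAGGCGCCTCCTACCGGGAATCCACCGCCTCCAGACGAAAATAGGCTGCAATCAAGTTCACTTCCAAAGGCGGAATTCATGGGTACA

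The SPINT1 pair started 47 bases apart and shared 52 bases of its windows, the TMEM51 pair 102 bases apart with 201 shared, and the STARD4 pair 309 bases apart with 0 shared. By these RefSeq starts SPINT1-AS1 and STARD4-AS1 begin just inside the sense gene, so that the first bases of both partners overlap, while TMEM51-AS1 begins upstream of TMEM51 and runs away from it. The GC content of the 6 windows was 55% to 72.3%, against a median of 58.7% over 35116 RefSeq windows of this length. The E-box CACCTG, the letters that the repressors ZEB1 and ZEB2 are known to bind, occurred 1 time in the SPINT1 window and 1 time in the TMEM51 window, searched on both strands. It occurred in 20.6% of all windows. The CCAAT box occurred 2 times in the STARD4 window, and 34.6% of all windows hold it. The TATA box letters TATAAA, in 11.5% of all windows, occurred in none of the 6. A match is a description of letters and not a site of binding. Of the 125 antisense RNAs, 81 had a window in this table.

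Most of the antisense RNAs had low listed values, and more of them were higher than lower in the resistant line. By the authors' deposited table, 85 of the 125 were higher in HCC827OR and 40 lower, 68% higher, where 53.9% of all table genes were higher and 46.1% lower, and where 52.2% of 3488 protein-coding genes and 63.0% of 578 other long non-coding genes were higher. The median value of the antisense RNAs was 0.74, 0.75 and 1 in the parental and 1.59, 1.73 and 1.6 in the resistant libraries. The higher of the line means had a median of 2.28 among the antisense RNAs and of 4.82 over all table genes. It was 2.03 among the other long non-coding genes. Scaling by gene length is not named, so these medians describe listed values and not abundance. The lines did not overlap, each library of one being above each of the other, for 117 antisense RNAs, 93.6%, near the 95.2% of all table genes. The 8 whose lines overlapped were DLGAP1-AS1, EHMT2-AS1, ID2-AS1, PKP4-AS1, PRKAR2A-AS1, PRKG1-AS1, SLCO4A1-AS1 and SMIM2-AS1. Another 6 were listed at 0 in every parental library and 6 in every resistant library.

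**Figure D1:**
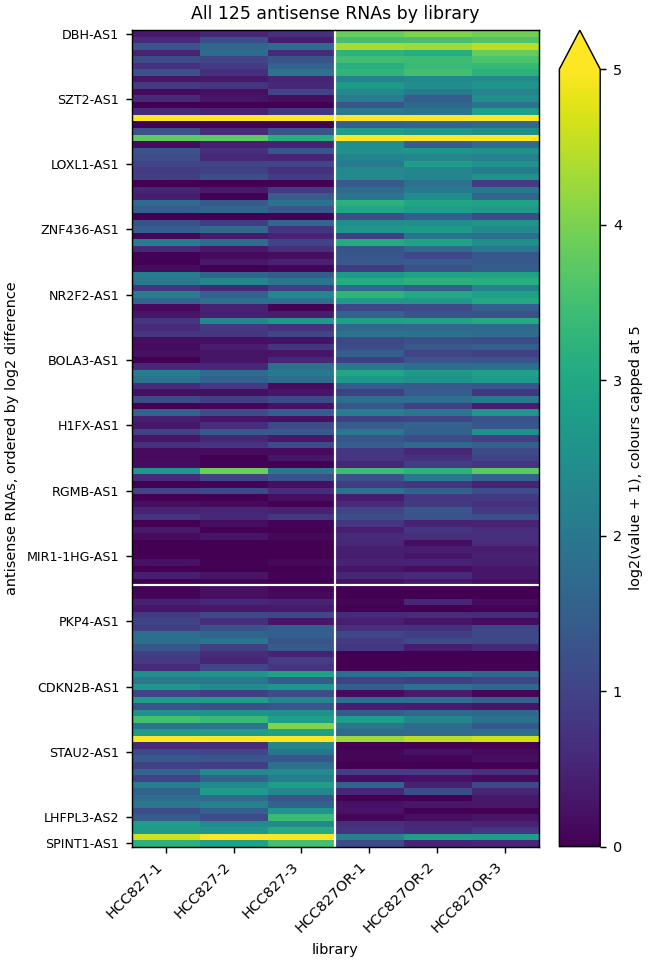
Normalized expression of the 125 antisense RNAs in each of the 6 libraries, as log2(value + 1) with the colour scale ending at 5; rows are ordered by the difference between the lines, with some rows named. The 85 rows above the horizontal line have the higher mean in the resistant line and the 40 below it in the parental line, and most cells are dark on this scale.

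A test was run with limma on log2(value + 1) over the table genes that reached a value of 1 in 3 or more of the 6 libraries, with Benjamini-Hochberg adjustment and a threshold of 0.05. It covered 86 of the antisense RNAs and left 39 untested for low values. The libraries of 1 line alone can meet this filter, so a gene can enter through the line where it is high. A mean of 1 or more in both lines was found for 40 of the tested antisense RNAs and for 2178 of the 3332 tested genes. The calls and median changes below are over sets chosen in this way. Of the 86, 57 were called higher and 25 lower, and 4 were not called: DLGAP1-AS1, LIPE-AS1, SLCO4A1-AS1 and SMIM2-AS1. Of all 3332 tested genes 97.5% were called, 52.5% higher and 45% lower, and the calls repeat the selection by the authors on the same libraries, so they are no independent evidence about the antisense RNAs. The median log2 fold change was 0.98 over the tested antisense RNAs, 0.93 over other tested long non-coding genes and 0.74 over all tested genes. Without parental library 3 the calls were again 57 higher and 25 lower.

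The named sense gene was in the table for 55 antisense RNAs, and for the other 70 it is not analysed here. In 53 of the 55 pairs, 96.4%, both partners changed in the same direction by the authors' deposited table, 30 both higher and 23 both lower in HCC827OR. Limma tested both partners of 34 pairs and called 18 both higher, 13 both lower and 1 in opposite directions. As a description of how often neighbours share a direction, 949 of 1262 pairs of neighbouring table genes with starts within 100 kb went the same way, 75.2%. Among 239 other pairs of table genes on opposite strands whose bodies overlap, 204 went the same way, 85.4%. These pairs share genes and libraries with each other, so the shares carry no test. Across the 34 tested pairs the log2 fold changes of antisense RNA and sense gene had a Spearman correlation of 0.76 and a Pearson correlation of 0.84, as a description over pairs that all come from the same 6 libraries. On log2(value + 1), which shrinks the change of low genes, the antisense RNA had the larger change in 16 of the 31 pairs called in the same direction. By the log2 fold changes of the authors' deposited table it had the larger change in 36 of the 53 pairs that went the same way.

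**Figure D2:**
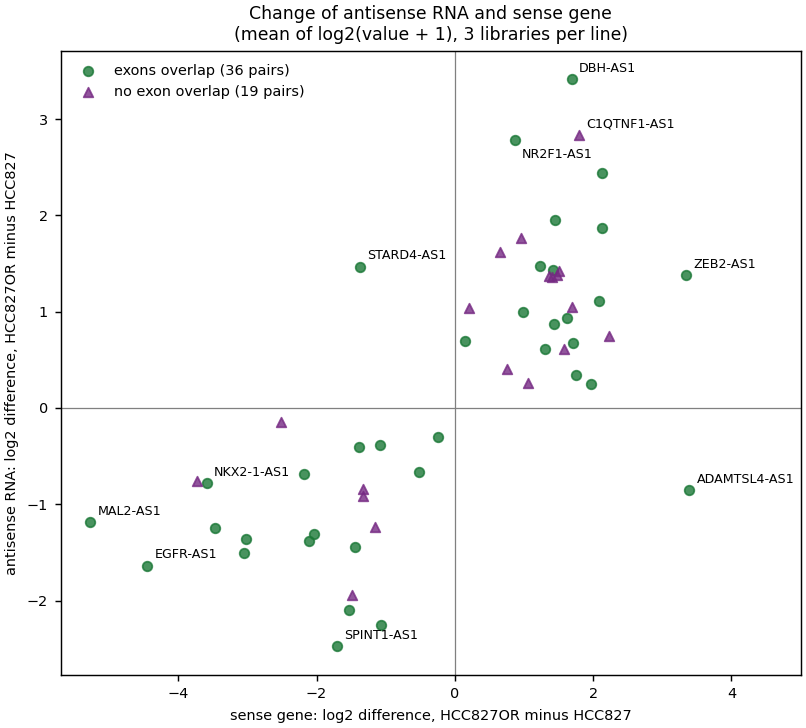
Difference between the lines in mean log2(value + 1), HCC827OR minus HCC827, for the sense gene on the horizontal axis and its antisense RNA on the vertical axis, 1 point for each of the 55 pairs; circles are pairs with overlapping exons and triangles pairs without. Of the points, 30 lie at the upper right and 23 at the lower left, with STARD4-AS1 alone at the upper left and ADAMTSL4-AS1 alone at the lower right.

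The layout of the pairs was read from GENCODE release 29 on GRCh38 by gene ID. All 121 antisense RNAs whose sense gene could be placed lay on the opposite strand from it. Of the 55 pairs, 53 had overlapping gene bodies, and 51 of these went the same way. The 2 pairs with bodies apart, INKA2 and ZMIZ1, also went the same way. Exons of both partners overlapped in 36 pairs, of which 34 went the same way, and did not overlap in 19 pairs, all 19 of which went the same way. The exon overlap was short, with a median of 128 bases, or 5.15% of the antisense exon bases. It was over 50% in 2 pairs, PAPPA and FOXD1, where every exon base of the antisense RNA lay in an exon of the sense gene. These overlaps are with the named sense gene only. Among the 19 pairs without it, exons of other opposite-strand genes took in 1645 of the 2131 exon bases of INKA2-AS1. They also took in 491 bases of SNAP25-AS1, 341 of CDKN2B-AS1, 248 of TAPT1-AS1 and 128 of NDUFV2-AS1. The rest of the 19 had none. For TMEM51-AS1, 3705 of 7873 exon bases lay in exons of any opposite-strand gene, against 253 in TMEM51 exons. Where strand is not used, unspliced sense RNA also gives reads inside antisense exons that lie in its introns. In 13 pairs under 10% of the antisense exon bases lay inside the sense gene's body, and 12 of these went the same way, STARD4 being the exception. In 19 pairs over 90% did, and all 19 went the same way. The distance between the annotated starts ran from 127 bases (SLC2A1) to 1323616 bases (PRKG1), with a median of 14585.

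**Figure D3:**
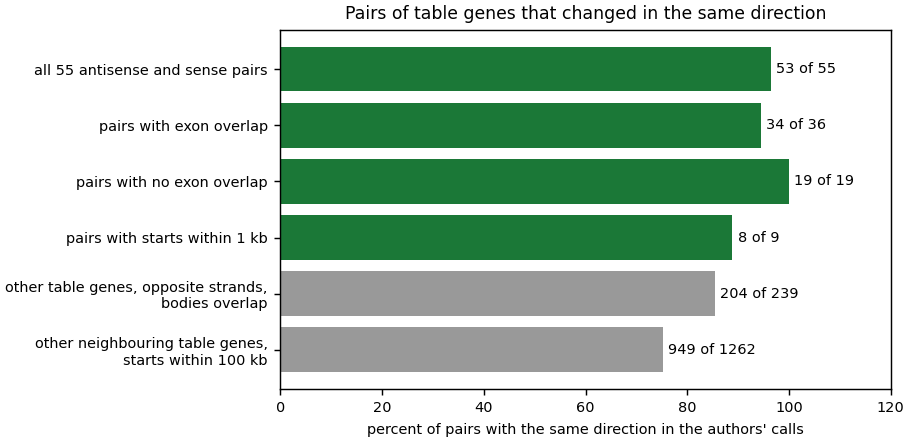
Percent of gene pairs with the same direction in the authors' calls, for the antisense and sense pairs (green) and for other pairs of table genes (grey), with the numbers beside each bar. The share was 96.4% over all 55 pairs and 100% in the 19 pairs whose partners share no exon bases. It was 85.4% in the 239 other overlapping pairs on opposite strands and 75.2% in the 1262 neighbouring pairs.

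STARD4-AS1 was the pair called in opposite directions by limma. STARD4 carries cholesterol between membranes. STARD4-AS1 (ENSG00000246859; chromosome 5, 111512226 to 111739726, plus strand) stood at 1.28, 0.5 and 0.44 in HCC827 and at 3.74, 3.83 and 3.54 in HCC827OR. All resistant libraries lay above all parental ones (log2 fold change 1.47, SE 0.196, limma adjusted p = 0.000279). STARD4 (chromosome 5, 111496033 to 111512590, minus strand) had values of 9.55, 10.05 and 19.23 against 4.31, 3.89 and 4.17. Its resistant libraries lay below all parental ones, of which library 3 was highest (log2 fold change -1.38, SE 0.26, limma adjusted p = 0.00153). Of the 5647 exon bases of the antisense RNA, 124 lie in STARD4 exons. Counting every annotated gene on the opposite strand, 1012 lie in exons. The part that reads of such other genes have in the rise was not tested. The mean of STARD4-AS1 rose 5.00-fold, or 7.88-fold when parental library 1 was left out.

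ADAMTSL4-AS1 was the other pair with opposite directions, by the authors' deposited table, and its antisense RNA was too low for the test. ADAMTSL4 is a secreted protein of fibrillin microfibrils. ADAMTSL4-AS1 (chromosome 1, 150560202 to 150574552, minus strand) stood at 1.01, 0.91 and 1.27 in HCC827 and at 0.1, 0.29 and 0.05 in HCC827OR. ADAMTSL4 had values of 1.26, 1.97 and 3.68 against 33.98, 29.79 and 32.7. The lines did not overlap for either gene, and ADAMTSL4 rose (log2 fold change 3.39, SE 0.262, limma adjusted p = 2.12e-05). Of the 2622 exon bases of the antisense RNA, 736 lie in exons of ADAMTSL4. Reads from those bases cannot be told apart if strand was not used.

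**Figure D4:**
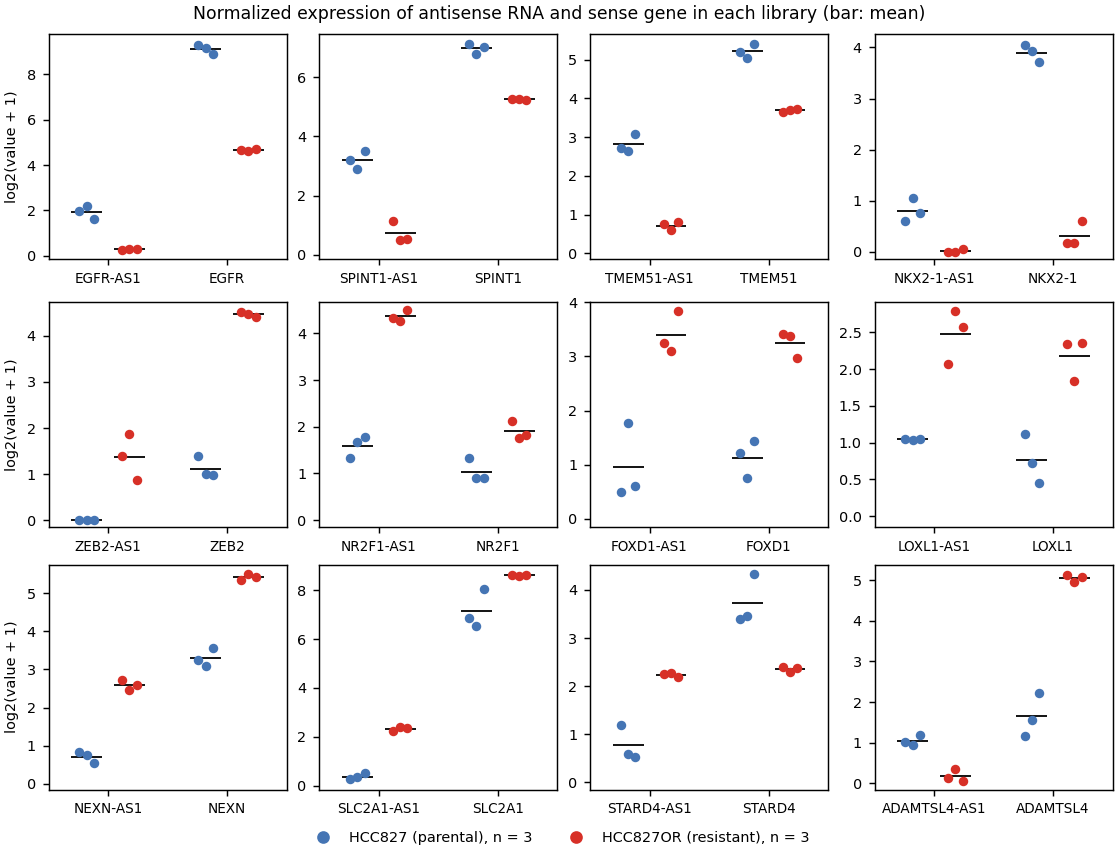
Normalized expression, as log2(value + 1), of antisense RNA (left in each panel) and sense gene (right) in the 3 parental (blue) and 3 resistant (red) libraries for 12 pairs, with bars at the means and a scale of its own in each panel. In 10 panels both partners move the same way, in the STARD4 panel the antisense RNA is higher and the sense gene lower in the resistant libraries, and in the ADAMTSL4 panel the reverse.

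The sense genes were sorted into roles for this description after their values were seen, so the counts by role carry no test. Of the 8 pairs at receptors and receptor ligands, 5 were lower together and 3 higher together by the authors' deposited table. EGFR-AS1 (chromosome 7, 55179750 to 55188934, minus strand) lies inside EGFR, the receptor that osimertinib inhibits. It stood at 2.96, 3.57 and 2.04 in HCC827 and at 0.19, 0.23 and 0.25 in HCC827OR. All resistant libraries were lower, by 12.8-fold in the mean (log2 fold change -1.64, SE 0.161, limma adjusted p = 6.59e-05). EGFR itself went from 630.91, 570.74 and 471.79 to 24.35, 23.81 and 25.21 (log2 fold change -4.45, SE 0.135, limma adjusted p = 7.40e-07). Of the 2806 exon bases of EGFR-AS1, 186 lie in EGFR exons, and the remainder in its introns.

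ITGB2-AS1, partner of the integrin beta-2 subunit known from leukocytes, fell from 2.09, 4.16 and 4.32 to 0.88, 0.83 and 0.62, and ITGB2 fell from 57.41, 48.56 and 43.96 to 11.95, 11.06 and 11.14. TNFRSF10A-AS1, partner of a death receptor for the ligand TRAIL, fell from 2.06, 5.43 and 3.98 to 0.47, 1.26 and 0.45, and TNFRSF10A from 18.15, 17.87 and 18.25 to 7.09, 5.42 and 5.61. The lines did not overlap for any of these genes. IL20RB-AS1 and VIPR1-AS1 were listed at 0 in all resistant libraries and were untested. IL20RB, a subunit of interleukin-20 family receptors, fell from 109.56, 107.17 and 70.33 to 7.33, 7.73 and 7.56. VIPR1, a receptor of vasoactive intestinal peptide, fell from 4.76, 3.39 and 3.15 to 0.1, 0 and 0.03.

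MELTF-AS1 rose from 3.35, 2.38 and 3.04 to 6.88, 5.4 and 6.27 (log2 fold change 0.88, SE 0.164, limma adjusted p = 0.00148), and MELTF, the iron-binding surface protein melanotransferrin, rose from 54.62, 48.63 and 65.73 to 155.35, 157.19 and 147.86. RGMB, a co-receptor of bone morphogenetic proteins, rose from 3.3, 2.75 and 2.27 to 7.2, 8.91 and 8.67. RGMB-AS1 had 1, 1.17 and 0.55 against 2.65, 1.94 and 1.26, and its call (log2 fold change 0.62, SE 0.212, limma adjusted p = 0.024) was lost with median scaling (limma adjusted p = 0.0608), with quantile normalization (limma adjusted p = 0.313) and on leaving out parental library 3 (limma adjusted p = 0.0553), resistant library 1 (limma adjusted p = 0.0728) or resistant library 2 (limma adjusted p = 0.0594). ADORA2A, an adenosine receptor, rose from 0.92, 0.88 and 3.16 to 6.84, 8.01 and 6.38, with parental library 3 highest among the parental ones. ADORA2A-AS1 was untested, at 0.1, 0 and 0.24 against 0.68, 0.65 and 1.02.

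Of the 10 pairs at transcription and chromatin factors, 8 were higher together and 2 lower together. Of the lower pairs, NKX2-1 is described. NKX2-1-AS1 was untested, at 0.52, 1.07 and 0.68 against 0, 0 and 0.04. NKX2-1, the lineage factor of lung epithelium, fell from 15.64, 14.18 and 12.19 to 0.12, 0.12 and 0.52 (log2 fold change -3.59, SE 0.183, limma adjusted p = 3.71e-06).

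NR2F1-AS1 stood at 1.51, 2.17 and 2.41 in HCC827 and at 19.2, 18.34 and 21.5 in HCC827OR, a rise of 9.69-fold in the mean (log2 fold change 2.78, SE 0.164, limma adjusted p = 6.61e-06). NR2F1, an orphan nuclear receptor of the COUP-TF group, rose from 1.51, 0.86 and 0.86 to 3.33, 2.4 and 2.55 (log2 fold change 0.86, SE 0.174, limma adjusted p = 0.00214). For its relative NR2F2 the sense gene had the larger log2 fold change. NR2F2-AS1 had 3.33, 1.89 and 4.07 against 8.63, 7.14 and 6.22 (log2 fold change 1.05, SE 0.24, limma adjusted p = 0.00385), and NR2F2 had 20.37, 21.46 and 24.41 against 69.65, 78.63 and 73.27 (log2 fold change 1.70, SE 0.118, limma adjusted p = 1.27e-05). The difference in change between partners was not tested.

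FOXD1, a forkhead factor, and FOXD1-AS1 both rose. FOXD1-AS1 had 0.41, 2.4 and 0.52 against 8.44, 7.57 and 13.29, and FOXD1 had 1.32, 0.68 and 1.7 against 9.6, 9.44 and 6.88. Since every exon base of this antisense RNA lies in FOXD1 exons, its values cannot be told apart from sense reads if strand was not used. TBX2-AS1 rose from 0.09, 0.15 and 1 to 4.09, 3.13 and 3.72, and TBX2, a T-box repressor, from 0.17, 0.34 and 0.24 to 1.32, 1.48 and 1.48, with no antisense exon inside the TBX2 gene body. ZMIZ1-AS1, whose body lies apart from that of the transcriptional co-regulator ZMIZ1, rose from 0.82, 0.93 and 0.62 to 4.11, 3.93 and 3.32, and ZMIZ1 from 9.63, 8.47 and 11.97 to 29.55, 28.33 and 32.01.

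ZEB2-AS1 (chromosome 2, 144517978 to 144521477, plus strand) was listed at 0 in all parental libraries and had 1.62, 2.66 and 0.83 in the resistant libraries, too low for the test. The antisense RNA is known from other epithelial cells to change splicing at the start of ZEB2, which encodes a repressor of E-cadherin. ZEB2 rose from 1.63, 0.99 and 0.96 to 21.77, 21.34 and 20.26 (log2 fold change 3.35, SE 0.163, limma adjusted p = 3.02e-06). Of the 3138 exon bases of the antisense RNA, 1299 lie in ZEB2 exons. SATB1-AS1 was untested, at 0.14, 0.09 and 0 against 0.52, 0.81 and 0.6, and SATB1, a chromatin organizer, rose from 1.29, 2.74 and 2.82 to 9.88, 8.57 and 7.48. BNC2-AS1 rose from 0.52, 0.4 and 0.75 to 2.97, 2.87 and 6.04, but the zinc finger gene BNC2 was not called, at 2.47, 3.17 and 8.07 against 6.37, 7 and 7.61 (log2 fold change 0.65, SE 0.349, limma adjusted p = 0.106). Without parental library 3 BNC2 was called higher, with a log2 fold change of 1.07 (limma adjusted p = 0.000195).

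Of the 8 pairs sorted as epithelial and junction genes, 7 were lower together and 1 higher together. This group takes in TMEM51, FAM83A and LEMD1, for which no epithelial or junction role is given here. Its count is therefore not one of epithelial genes alone. SPINT1-AS1 stood at 8.3, 6.4 and 10.43 in HCC827 and at 1.19, 0.43 and 0.46 in HCC827OR. All resistant libraries were lower, by 12.1-fold in the mean, or 18.8-fold without resistant library 1 (log2 fold change -2.48, SE 0.239, limma adjusted p = 5.95e-05). SPINT1, an inhibitor of the epithelial protease matriptase, fell from 137.89, 107.96 and 129.46 to 37.62, 37.77 and 36.8 (log2 fold change -1.71, SE 0.124, limma adjusted p = 1.58e-05). This is the pair whose promoter windows share 52 bases.

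TMEM51-AS1, the antisense RNA with 201 shared window bases, fell from 5.62, 5.19 and 7.47 to 0.69, 0.51 and 0.74 (log2 fold change -2.10, SE 0.165, limma adjusted p = 2.25e-05). TMEM51, a membrane protein gene, fell from 35.7, 32.01 and 41.53 to 11.63, 11.98 and 12.11. TRIM31-AS1 fell from 2.51, 2.32 and 1.47 to 0, 0 and 0.26, and TRIM31, a ubiquitin ligase of gut epithelium, from 26.84, 28.15 and 40.31 to 3.07, 3.28 and 2.38. MAL2-AS1 and FAM83A-AS1 were listed at 0 in all resistant libraries and were untested. MAL2-AS1 had 0.53, 0.57 and 3.87 in the parental libraries, and MAL2, needed for transcytosis in polarized epithelium, fell from 180.71, 191.78 and 152.26 to 3.37, 4.15 and 3.14. FAM83A, a gene linked to EGFR signalling, fell from 16.21, 14.47 and 26.09 to 0.34, 0.56 and 0.47, and its antisense RNA had parental values of 0.77, 0.46 and 0.87.

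LEMD1-AS1 was at 0.16 or below in all parental libraries and listed at 0 in all resistant ones, while LEMD1 fell from 12.53, 14.05 and 10.84 to 1.65, 1.36 and 1.06. PKP4-AS1 was untested and its lines overlapped, at 1.04, 0.61 and 0.23 against 0.33, 0.22 and 0.12, while PKP4, an armadillo protein of cell junctions, fell from 47.77, 43.47 and 42.85 to 19.43, 22.2 and 20.35. The higher pair was PARD6G, a polarity gene on chromosome 18. PARD6G-AS1 rose from 0.92, 1.28 and 0.83 to 4.1, 3.77 and 4.83 (log2 fold change 1.38, SE 0.152, limma adjusted p = 0.000109), and PARD6G from 0.52, 0.59 and 0.29 to 3.21, 3.6 and 2.52.

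Of the 10 pairs at matrix, cytoskeleton and secreted genes, 9 were higher together and the tenth was ADAMTSL4. LOXL1-AS1, studied in several tumour types, rose from 1.07, 1.05 and 1.06 to 3.21, 5.94 and 4.92 (log2 fold change 1.44, SE 0.2, limma adjusted p = 0.000346). LOXL1, an enzyme that cross-links elastin, rose from 1.16, 0.65 and 0.37 to 4.08, 2.58 and 4.11. All resistant libraries lay above all parental ones for both. C1QTNF1-AS1 rose from 0.54, 1.26 and 0.3 to 10.41, 10.59 and 11.4 (log2 fold change 2.83, SE 0.22, limma adjusted p = 2.17e-05), and C1QTNF1, a secreted C1q-like protein, from 0.05, 0.14 and 0.06 to 2.97, 3.07 and 2.27. Their exons do not overlap. NEXN-AS1 rose from 0.79, 0.68 and 0.47 to 5.57, 4.46 and 5.02, and NEXN, an actin-binding protein, from 8.4, 7.49 and 10.82 to 39.28, 44.23 and 42.14.

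P3H2-AS1 was spread in both lines, at 0.34, 0.02 and 1.72 against 2.72, 4.4 and 2.11, yet passed the test (log2 fold change 1.36, SE 0.38, limma adjusted p = 0.0101). P3H2, a collagen prolyl hydroxylase, rose from 33.5, 28.28 and 49.62 to 95.17, 98.22 and 98.03. LGALS8-AS1 rose from 0.14, 0.16 and 0.19 to 1.12, 1.34 and 1.23, and LGALS8, which encodes galectin-8, from 15.53, 14.58 and 21.49 to 45.76, 59.78 and 57.96. The antisense RNAs of BASP1, FRMD6, PAPPA and PRKG1 were untested, while all 4 of these sense genes rose. FRMD6-AS1 had 0.2, 0.46 and 0.27 against 1.5, 1.23 and 0.88, and FRMD6, a regulator of the Hippo pathway, had 5.63, 5.68 and 5.02 against 29.64, 28.67 and 29.04. PAPPA-AS1, all of whose exon bases are shared, had 0.1, 0.01 and 0.06 against 0.81, 1.36 and 1.78, and PAPPA, a protease of insulin-like growth factor binding proteins, had 0.24, 0.01 and 0.06 against 3.99, 3.39 and 3.66. BASP1-AS1 did not exceed 0.42 in any library and PRKG1-AS1 did not exceed 0.53.

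Of the 10 pairs at metabolic enzymes and transporters, 5 were higher together and 4 lower together, and the tenth was STARD4. DBH-AS1 (chromosome 9, 133654586 to 133657313, minus strand) rose from 0.27, 0.45 and 0.59 to 13.22, 15.28 and 14.23, 32.6-fold in the mean (log2 fold change 3.41, SE 0.15, limma adjusted p = 2.07e-06). DBH, which turns dopamine into noradrenaline, rose from 0.22, 0 and 0 to 2.36, 1.69 and 3.58 (log2 fold change 1.69, SE 0.203, limma adjusted p = 0.000165). Of the 2139 exon bases of DBH-AS1, 118 lie in DBH exons. SLC2A1-AS1 rose from 0.2, 0.27 and 0.43 to 3.68, 4.26 and 4.14 (log2 fold change 1.95, SE 0.124, limma adjusted p = 8.91e-06). SLC2A1, the glucose transporter GLUT1, had 113.76, 92.65 and 266.23 against 394.39, 381.6 and 389.69 (log2 fold change 1.45, SE 0.365, limma adjusted p = 0.00611), with parental library 3 well above the other parental ones. Their starts lie 127 bases apart.

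AZIN1-AS1 fell from 23.93, 31.29 and 30.16 to 3.66, 6.17 and 5.94 (log2 fold change -2.25, SE 0.206, limma adjusted p = 4.70e-05), and AZIN1, which protects the polyamine enzyme ornithine decarboxylase, fell from 157.37, 154.02 and 216.33 to 79.65, 83.43 and 85.12 (log2 fold change -1.06, SE 0.155, limma adjusted p = 0.000429). The difference between the partners was not tested. RDH10-AS1 fell from 1.01, 1.96 and 3.28 to 0.14, 0.19 and 0.11, and RDH10, a retinol dehydrogenase, from 128.28, 122.18 and 230.49 to 22.02, 18.56 and 14.32. ABHD11-AS1 fell from 3.38, 4.2 and 6.01 to 2, 0.37 and 1.18, and ABHD11, a mitochondrial hydrolase, from 59.85, 56.55 and 54.63 to 13.03, 11.7 and 12.51. SLCO4A1-AS1 was not called, at 0.91, 1.42 and 1.84 against 0.59, 0.66 and 1.12 (log2 fold change -0.41, SE 0.183, limma adjusted p = 0.0619). It was called lower with median scaling (limma adjusted p = 0.0291), with quantile normalization (limma adjusted p = 0.00313), and without parental library 1 (limma adjusted p = 0.0208) or resistant library 3 (limma adjusted p = 0.0321). The organic anion transporter SLCO4A1 fell with a log2 fold change of -1.38 (limma adjusted p = 0.0126), which was -0.87 without parental library 3.

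NDUFV2-AS1 rose from 0.44, 0.26 and 0.84 to 2.37, 3.19 and 3.04, and NDUFV2, a subunit of respiratory complex I, from 104.63, 125.36 and 153.67 to 327.51, 334.38 and 318.24. The line means rose 5.58-fold for NDUFV2-AS1 and 2.55-fold for NDUFV2, and the exons of the pair do not overlap. ATP2B1-AS1 rose from 0.23, 0.35 and 0.31 to 2.02, 1.42 and 1.37, and ATP2B1, a calcium pump of the plasma membrane, from 17.83, 17.62 and 12.48 to 31.18, 34.36 and 31.14. Both partners of the TRHDE pair were too low for the test, with no value above 1.23 in any library.

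The 9 remaining pairs had sense genes of other roles, 4 higher together and 5 lower together. CDKN2B-AS1, also called ANRIL, spans the whole of the cell cycle inhibitor gene CDKN2B on the other strand and is known to bring Polycomb proteins to it. It fell from 5.06, 4.34 and 5.07 to 1.87, 2.67 and 2.21 (log2 fold change -0.85, SE 0.154, limma adjusted p = 0.00129), with CDKN2B lying between its exons. CDKN2B had 26.18, 25.94 and 6.43 against 4.59, 7.07 and 6.72, so parental library 3 lay within the resistant range. Its call (log2 fold change -1.32, SE 0.501, limma adjusted p = 0.0349) held without parental library 3, but was lost without parental library 1 (limma adjusted p = 0.118) or 2 (limma adjusted p = 0.114), without resistant library 1 (limma adjusted p = 0.103), 2 (limma adjusted p = 0.0604) or 3 (limma adjusted p = 0.0672), and with quantile normalization (limma adjusted p = 0.0583).

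RASSF8-AS1 rose from 1.46, 0.6 and 1.5 to 4.74, 5.26 and 4.91, and RASSF8, a Ras association domain gene, from 3.4, 3.49 and 4.7 to 9.92, 11.12 and 9.87. SAMD12-AS1 fell from 1.67, 1.52 and 1.52 to 0.07, 0.05 and 0.15, and SAMD12 from 11.07, 11.49 and 15.37 to 5.27, 5.73 and 4.38. TAPT1-AS1 fell from 1.46, 1.34 and 1.52 to 0.34, 0.3 and 0.24, and TAPT1, a gene of ciliogenesis, from 13.95, 12.93 and 23.43 to 5.38, 5.46 and 6.8. None of these 3 antisense RNAs overlapped between the lines. SNAP25-AS1 rose from 0.09, 0.38 and 0.02 to 1.05, 1.25 and 1.89, while SNAP25, a SNARE protein of synapses, stayed at 0.21 or below and was untested. IQCH fell from 2.95, 2.62 and 1.91 to 1.47, 1.16 and 1.62 (limma adjusted p = 0.0152, and 0.063 without resistant library 2), and IQCH-AS1 was untested, at 1.61, 0.92 and 1.68 against 0.74, 0.31 and 0.49. The INKA2 and TNRC6C pairs were untested on both sides, with no value above 1.82 and 0.36.

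For the antisense RNAs whose sense gene was not in the table, the 6 with the smallest adjusted p in each direction are described, together with those known from studies of epithelial or tumour cells. AGAP2-AS1 (chromosome 12, 57726271 to 57728356, plus strand), which has been studied in lung and other tumours, stood at 57.65, 52.64 and 75.85 in HCC827 and at 189.29, 185.4 and 195.27 in HCC827OR. It rose 3.06-fold in the mean (log2 fold change 1.62, SE 0.153, limma adjusted p = 5.45e-05), with every resistant library above every parental one. ROR1-AS1, opposite the Wnt receptor gene ROR1, rose from 1.2, 1.06 and 1.46 to 10.05, 9.79 and 10.97, 8.28-fold in the mean (log2 fold change 2.33, SE 0.142, limma adjusted p = 7.44e-06). DLGAP1-AS3 and MSC-AS1 were listed at 0 in all parental libraries and rose to 1.8, 2.02 and 2.31 and to 1.49, 2.27 and 2.72. TTC21B-AS1 rose from 0, 0 and 0.03 to 1.3, 1.8 and 1.2, and A2M-AS1 from 0.03, 0.09 and 0.14 to 1.53, 1.15 and 1.61. GATA6-AS1, beside an endoderm factor gene on chromosome 18, rose from 1.39, 0.61 and 2.78 to 8.7, 10.55 and 8.3, 5.76-fold in the mean and 9.18-fold without parental library 3. FOXD2-AS1 rose from 3.26, 2.06 and 1.79 to 5.53, 6.37 and 6.39.

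Of the lower ones, NCBP2-AS2, which despite its name is annotated as protein-coding, fell from 52.29, 60.58 and 35.9 to 18.04, 21.32 and 24.02 (log2 fold change -1.17, SE 0.212, limma adjusted p = 0.00125). ZBED5-AS1 fell from 5.89, 5.82 and 6.27 to 2.27, 2.38 and 2.69, and ZBED3-AS1 from 4.74, 5.04 and 4.68 to 1.77, 2.28 and 2.2. RUSC1-AS1 fell from 4.53, 4.98 and 6.28 to 2.56, 2.81 and 2.13. STAU2-AS1 fell from 1.19, 1.12 and 2.85 to 0.07, 0.19 and 0.09. CLDN10-AS1, opposite a gene of the claudin family of tight junction proteins, fell from 1.2, 1.88 and 5.08 to 0.18, 0 and 0, with parental library 3 highest. All 6 had lines that did not overlap. Of a list of 43 antisense and related RNAs studied in epithelial or cancer cells, 11 were in the table, and limma tested 8, of which 4 rose and 4 fell.

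The antisense RNAs lay on all autosomes, and on chromosomes 8 and 18, where most table genes went one way, most or all of them did too. On chromosome 8, 8 of 10 antisense RNAs were lower by the authors' deposited table, beside 160 lower and 67 higher table genes there. On chromosome 18 all 5 were higher, with 80 table genes higher and 21 lower. On chromosome 1, which held the most, 12 of 16 were higher, with 244 table genes higher and 193 lower. Elsewhere the antisense RNAs did not always go with the chromosome. On chromosome 2, 7 of 8 were higher, with 168 table genes higher and 172 lower. On chromosome 9, 6 of 7 were higher, with 88 table genes higher and 90 lower. Other table genes within 250 kb, the sense gene left out, were found for 90 antisense RNAs. Of these 211 neighbours, 138 went in the direction of the antisense RNA, 65.4%. For 43 antisense RNAs every such neighbour went its way, and for 17 every neighbour went the other way. The share for other table genes was not counted in this window, so these numbers have no background to be read against.

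**Figure D5:**
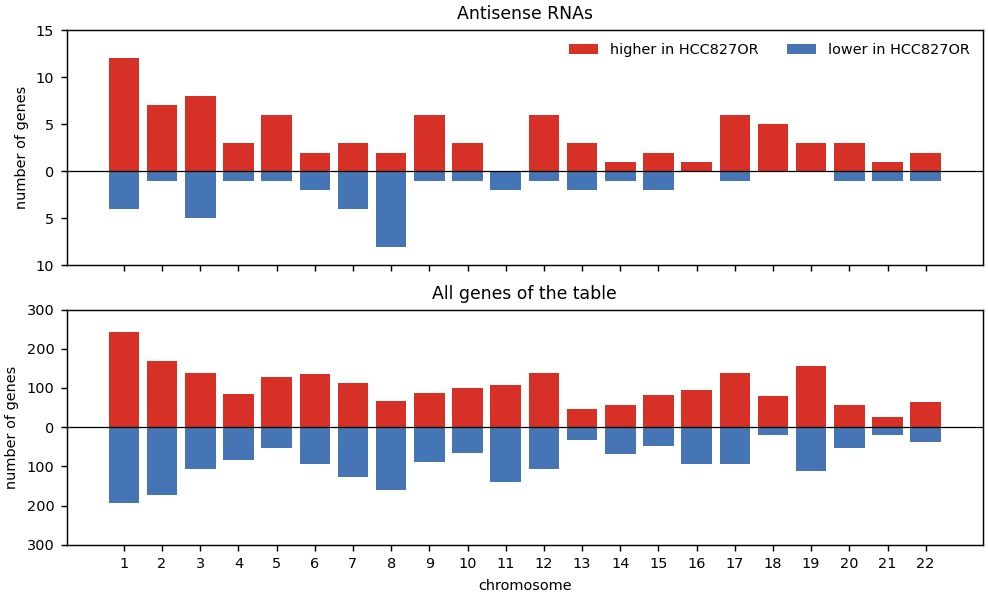
Number of antisense RNAs (top) and of all table genes (bottom) on each autosome that were higher (red, upwards) or lower (blue, downwards) in HCC827OR by the authors' calls. Chromosome 8 has 8 lower and 2 higher antisense RNAs, and chromosome 18 has 5 higher and none lower.

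Kinds of transcript with related names were few. Of 6 divergent transcripts, named -DT, 5 were higher by the authors' deposited table and 1 lower, and limma tested 3, all of which rose. ITGB1-DT, which starts beside the integrin beta-1 gene, had 17.88, 18.69 and 27.92 in HCC827 and 102.12, 105.03 and 109.42 in HCC827OR. Of 6 antisense RNAs named -AS with no number, which the rule does not take in, 3 rose and 3 fell. Among them KRT7-AS, opposite the keratin 7 gene, fell from 20.99, 20.29 and 22.46 to 3.77, 4.16 and 4.13, and KRT7, an epithelial marker, fell as well. A list of enzymes and factors of nuclear RNA turnover and antisense processing held 46 symbols, some of them older and newer names of the same gene. Of these, 2 were in the table, AGO2 and EXOSC4, both of which lie on chromosome 8 and fell. EXOSC4, a subunit of the RNA exosome that degrades many antisense RNAs, went from 55.27, 50.1 and 27.72 to 16.95, 17.49 and 16.35.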

How the data were processed

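RNA of 3 HCC827 and 3 HCC827OR libraries was sequenced, and the titles of the samples gave their groups and replicate numbers. Per library the deposited table holds a normalized expression signal of unnamed unit with 2 decimals. It also holds the authors' line means, their fold change as a ratio and as log2, and their p-value, raw and adjusted, per the file headers. The tests behind the authors' p-values are not given in the sources used here. The submitters' processing notes name Bowtie 0.12.2 and the mouse build mm8, against the human gene IDs, and the labels' extraction protocol speaks of retinas. The human build, the annotation and the use of strand are not given in the sources used here. No counts are given, so depth is unknown and count tests were not run.

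Antisense RNAs were taken by name and their sense genes by exact symbol, and matching older symbols added none. The members, gene lists and tests were chosen with earlier results of these data known. Positions and exons are those of GENCODE release 29 (GRCh38), matched by gene ID for all 125, and promoters those of RefSeq (GRCh38.p14). In R 4.3.3, limma 3.58.1 with its trend option was fitted to log2(value + 1) for all genes that reached 1 in 3 or more of 6 libraries, with Benjamini-Hochberg adjustment over the 3332 genes tested. Log2 fold changes on this scale understate those of low genes, and linear folds are ratios of line means. Levels of single genes are not compared with each other, since scaling by length is not named. The medians over the antisense RNAs, over other long non-coding genes and over all table genes carry the same limit. The test was checked on simulated data in which most genes were unchanged. This table holds only genes already called by the authors, so that check does not cover its setting. The genes described are every pair, the 6 other antisense RNAs with the smallest adjusted p in each direction and a list of studied antisense RNAs, and some that this rule names are not reported here. Tables were handled in Python 3.11.15 with pandas 2.3.3. Alternatives covered scaling, filter, pseudocount, trend, threshold, size of change, replicate block and leaving out each library.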

Additional observations from a re-analysis of the deposited data

How the results depend on the processing

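No log2 fold change of the 100 tested genes described changed sign under any alternative fit. Of these genes, 95 kept their side of the 0.05 threshold under every alternative fit in which they were tested. These fits varied scaling, filter, pseudocount, trend, replicate block and the libraries. They did not vary the threshold or require a size of change, under which calls of further genes can be lost. Of 1356 gene and setting values, 1338 kept their call, 12 lost it and 6 gained it, in BNC2, CDKN2B, IQCH, RGMB-AS1 and SLCO4A1-AS1. Counts followed the filter on low values, which changes how many genes are tested. With no filter 47 pairs were called in the same direction and 2 in opposite directions, against 31 and 1. With a minimum of 0.5 it was again 2 in opposite directions. With a minimum of 5, 16 antisense RNAs were called higher and 6 lower, 6 pairs went the same way and 0 opposite, and 987 genes of the table were called higher against 1749. Where a log2 fold change of 1 or more in size was required, counts fell as well. Then 40 antisense RNAs were called higher in place of 57, and 16 lower in place of 25. Pairs called in the same direction were 23 in place of 31, with 1 opposite. Over all genes, 1434 were called higher in place of 1749, and 1110 lower in place of 1500. The authors' direction, taken for every pair, gives 53 in the same direction. Leaving out each library in turn gave 54 to 57 antisense RNAs higher, 25 lower, 29 to 31 pairs in the same direction and 1 opposite. Median scaling moved the median log2 fold change of all tested genes by -0.06 and quantile normalization by -0.10. With the replicate block 58 antisense RNAs were called higher and 26 lower, with 32 pairs in the same direction, and SLCO4A1-AS1 was called lower (limma adjusted p = 0.0213). Same-numbered libraries showed no shared deviation (correlations 0.0256, 0.0258 and -0.0281). Whether equal numbers were cultured or prepared together is not stated, and the numbers were not taken as a pairing in the main fit. Depth is unknown, and 39 antisense RNAs were too low to test.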
